A study of Mus musculus with 9 samples.

Results

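The levels of 10 heat shock chaperone genes are described here in RNA from hippocampal synaptoneurosomes: Hspa1a, Hspa1b, Hspa8, Hspa5, Hsp90aa1, Hsp90ab1, Dnajb1, Dnaja1, Hsph1 and Hspb1. They are 10 of the 22255 genes in the deposited table, and all 10 had enough counts to enter the test of 14512 genes. Hspa1a and Hspa1b were chosen by their higher level after AM6545 in these same samples, so their group values are a description without a test. The other 8 were added by name, to learn whether further chaperones shifted with that pair, and are tested.

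All 9 samples came from Fmr1 KO mice, which lack the fragile X protein FMRP, of strain C57Bl/6J. In 4 samples (A, B, C and E) treatment was sub-chronic AM6545, a compound that blocks the CB1 cannabinoid receptor and enters the brain poorly. In the other 5 samples (A to E) it was vehicle. Synaptoneurosomes are a fraction enriched in resealed synaptic terminals, prepared here from frozen hippocampus. Both groups carry the Fmr1 mutation and wild-type samples are not analysed here, so the comparison is of treatment within the mutant. Age, sex and dose are not given in the sources used here. The labels do not say whether the samples of a group came from separate animals, and p-values measure the spread between these samples only.

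Heat shock proteins bind unfolded polypeptides and help them fold, move or be degraded. HSP70 proteins (Hspa1a, Hspa1b, Hspa8 and, in the endoplasmic reticulum, Hspa5) clamp onto exposed hydrophobic stretches in a cycle driven by ATP. J-domain proteins (Dnajb1, Dnaja1) deliver clients and stimulate the ATPase, and the HSP110 protein Hsph1 exchanges the nucleotide. HSP90 proteins (Hsp90aa1, Hsp90ab1) act later on near-native clients such as kinases and steroid receptors, and Hspb1 is a small heat shock protein that holds unfolding proteins without ATP. The heat shock factor HSF1 raises the inducible genes of this set by binding repeats of a short unit in their promoters, while Hspa5 is the classical target of the unfolded protein response. In neurons Hspa8 also uncoats clathrin-coated vesicles and takes part in synaptic vesicle recycling.

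The promoters are shown first because HSF1 binds its repeated unit there. The units were searched as exact letters, so imperfect units are not counted. RefSeq windows of the 250 bases before a transcription start (GRCm38.p6) were found for 7 of the 10 genes, in 11 windows. The window of Hspa1a, on the minus strand at chr17:34972157-34972406, is printed whole, 5′ to 3′, with a pair of inverted heat shock units (GAANNTTC) in capitals. That match ends 97 bases before the start site.
Hspa1a: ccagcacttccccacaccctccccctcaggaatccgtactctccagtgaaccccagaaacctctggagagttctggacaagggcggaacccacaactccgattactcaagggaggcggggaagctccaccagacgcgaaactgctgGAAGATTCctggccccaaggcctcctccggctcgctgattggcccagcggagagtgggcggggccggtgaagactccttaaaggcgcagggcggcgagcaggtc

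The window of Hspa1b (chr17:34959239-34959488, minus strand) was 98.8% identical to it, with 3 substitutions in 250 bases: C44T, T47C and T249G, written as the Hspa1a base, the position from 1 at the window's 5′ end, and the Hspa1b base. The paired units lie in the identical stretch. The short stretches around the matches in the other genes are given so that the unit can be compared, with the matched bases in capitals.
Dnaja1: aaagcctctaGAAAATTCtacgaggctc
Hsph1: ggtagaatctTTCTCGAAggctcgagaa
Hspb1: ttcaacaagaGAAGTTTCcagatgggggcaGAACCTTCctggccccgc
Hspa5: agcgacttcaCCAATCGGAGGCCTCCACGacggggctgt

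The Dnaja1 stretch lies on the plus strand at chr4:40722334-40722361, the Hsph1 stretch on the minus strand at chr5:149636352-149636379 and the Hspb1 stretch, with 2 matches, on the plus strand at chr5:135887792-135887839. A pair of units in either order (GAANNTTC or TTCNNGAA, each the same on both strands) was in 5 of the 7 genes with a window, against 12.8% of all 32851 windows of that length. Dnaja1 had it in 1 of its 3 windows and Hsph1 in both of its 2, which overlap and hold the same match. Hspa1a and Hspa1b, with their nearly identical windows, are both among the 5. Counts here are of genes, some with more than 1 window, and percentages are of single windows, so they are not like measures. A run of 3 units was in 0 of the 7 genes, against 0.466% of all windows. Hspa5, the endoplasmic reticulum HSP70, had instead the capitalised stretch of CCAAT, 9 bases and CCACG, the form of the endoplasmic reticulum stress element. It lies on the plus strand at chr2:34772015-34772053, ends 47 bases before the start site, and that form was in 0.113% of all windows. Neither form was found in the 2 windows of Dnajb1. These matches are a description of letters and say nothing of binding in these samples.

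Levels are given as CPM, counts scaled to a common library size (TMM). Total counts ran from 17629017 to 27263574 per sample. Fmr1 transcripts were counted in every sample, at 9.45 to 13.3 CPM. Of the neuronal and synaptic markers, 12 of 12 reached 1 CPM in every sample, as did 10 of 10 hippocampal neuron markers. Glial RNA was present too, with the sum of 10 oligodendrocyte markers at 11063 to 22987 CPM. Of 12 choroid plexus markers 1 was at 0 in some sample, and their sum ran from 74.9 to 1050 CPM with AM6545 and from 61.9 to 4681 CPM with vehicle. In such bulk samples fewer cells of a type and less RNA per cell cannot be told apart.

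The members differed widely in level. Per kilobase of the longest transcript, Hspa8 was highest at 1425 ± 276 CPM per kb (SD, n = 9), followed by Hsp90ab1 at 888 ± 245 and Hsp90aa1 at 366 ± 77.1. Hspa5 followed at 229 ± 38.6, Hsph1 at 106 ± 26.1 and Dnaja1 at 104 ± 13.6 CPM per kb. The low end held Dnajb1 at 20.95 ± 2.79, Hspa1b at 11.9 ± 4.69, Hspa1a at 9.74 ± 3.76 and Hspb1 at 4.85 ± 2.18 CPM per kb. Hsph1 and Dnaja1 did not differ beyond their spread, since Hsph1 was the higher of the pair in 4 of 9 samples. The ranges of Hspa8 and Hsp90ab1 overlapped over the 9 samples, but Hspa8 was the higher in each of the 9. Together the 10 genes made up 0.636% to 1.16% of all counts.

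The inducible HSP70 pair stood higher in 3 of the 4 AM6545 samples. Hspa1a (ENSMUSG00000091971.4) was at 40.1, 52.3, 33.7 and 21.1 CPM in AM6545 A, B, C and E. In vehicle A to E it was at 17.9, 25.9, 21.8, 22.4 and 24.9 CPM. AM6545 A, B and C lay above every vehicle sample and AM6545 E lay within the vehicle range, so the groups overlapped. The means were 36.8 ± 13.0 CPM after AM6545 (SD, n = 4) and 22.6 ± 3.11 CPM after vehicle (SD, n = 5). The fitted ratio was 1.62-fold, or 0.70 on the log2 scale (SE 0.20).

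Hspa1b (ENSMUSG00000090877.4), its tandem neighbour, was at 51.3, 57.7, 37.4 and 23.2 CPM in AM6545 A, B, C and E. In vehicle A to E it was at 22.5, 29.1, 21.3, 25.4 and 31.4 CPM. Again AM6545 A, B and C were above all vehicle samples, with E among them. The means were 42.4 ± 15.4 CPM (SD, n = 4) and 25.9 ± 4.29 CPM (SD, n = 5), and the log2 fold change was 0.70 (SE 0.21). Leaving out 1 sample at a time, it ran from 0.52 without AM6545 B to 0.91 without AM6545 E, and that of Hspa1a from 0.48 to 0.89 with the same samples left out.

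The transcripts of the pair are 99.2% identical over 2201 bases, with 1 identical run of 638 bases, so how counts were divided between them is uncertain. Hspa1a also overlaps Gm20481 on the other strand, which had at most 1 count in any sample. Hspa1a took between 43.8% and 50.5% of the pair's sum, with 46.6% ± 1.84 after AM6545 and 46.6% ± 2.57 after vehicle. Their sum does not depend on the division. It was 91.4, 110.0, 71.0 and 44.2 CPM in AM6545 A, B, C and E and 40.4 to 56.3 CPM in the vehicle samples. Fitted as 1 gene, the log2 fold change was 0.70.

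**Figure D1:**
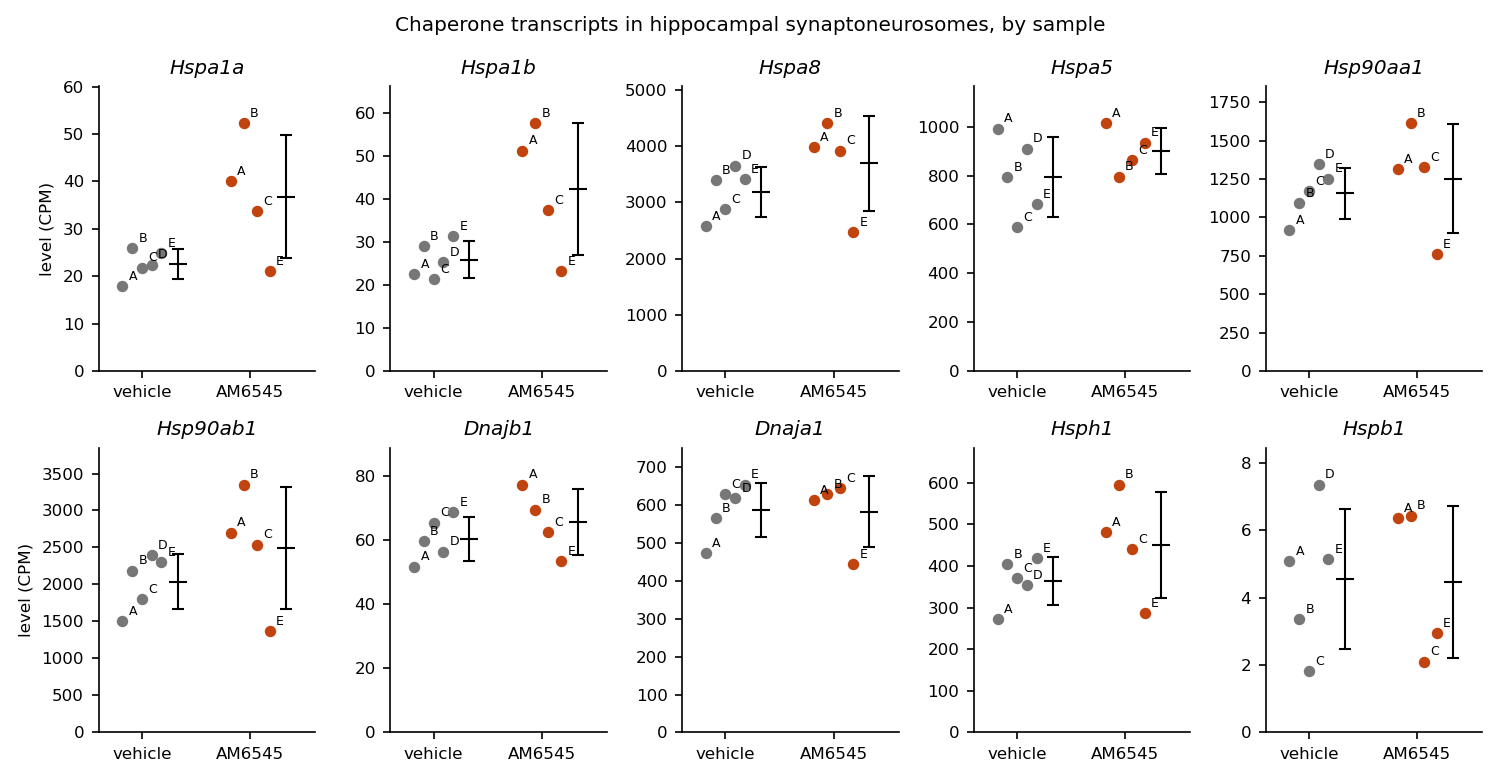
CPM (y axis, from 0, a separate scale for each gene) of the 10 chaperone genes in the AM6545 and vehicle samples, with 1 lettered point per sample and bars for the mean ± SD. AM6545 E sits below the other 3 AM6545 samples for Hspa1a, Hspa1b, Hspa8, Hsp90aa1, Hsp90ab1 and Hsph1, while Hspa5 does not follow that order.

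None of the other 8 chaperones passed the threshold. By edgeR's quasi-likelihood test with Benjamini-Hochberg adjustment over all genes, 0 of 8 had an adjusted p under 0.05, as did 0% of all genes tested. At an unadjusted p under 0.05 there were also 0 of the 8, against 7.21% of all genes. DESeq2 and limma-voom gave 0 of 8 at the adjusted threshold as well. Of the 8, 6 were higher and 2 lower after AM6545, with a median log2 fold change of 0.15 beside -0.01 for all genes. Every AM6545 sample lay above every vehicle sample for 0 of the 10 chaperones, against 0.579% of all genes.

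Hsph1 (ENSMUSG00000029657.16), the HSP110 nucleotide exchange factor of the cytosol, had the highest fold change of the 8. It was at 481, 595, 440 and 286 CPM in AM6545 A, B, C and E, and at 272, 404, 371, 355 and 419 CPM in vehicle A to E. As for the inducible pair, AM6545 A, B and C were above all vehicle samples and AM6545 E was among the low ones. Its log2 fold change was 0.31 (SE 0.18, 95% interval -0.07 to 0.69, edgeR adjusted p = 0.662). The mean difference, 451 ± 128 against 364 ± 57.5 CPM, was smaller than the spread of the AM6545 samples.

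Hspa8 (ENSMUSG00000015656.18), the constitutive HSP70 of the cytosol, was at 3976, 4409, 3922 and 2468 CPM in AM6545 A, B, C and E. In vehicle A to E it was at 2581, 3398, 2876, 3653 and 3413 CPM. Here too AM6545 A, B and C exceeded every vehicle sample, but AM6545 E was the lowest of all 9. The log2 fold change was 0.21 (SE 0.17, 95% interval -0.14 to 0.57, edgeR adjusted p = 0.717), with 3694 ± 846 CPM after AM6545 (SD, n = 4) and 3184 ± 441 CPM after vehicle (SD, n = 5).

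The HSP90 pair shared the low level of AM6545 E. Hsp90ab1 had the same order of the 9 samples as Hspa8, and Hsp90aa1 did not. Hsp90ab1 (ENSMUSG00000023944.15), the constitutive form, was at 2701, 3349, 2537 and 1371 CPM in AM6545 A, B, C and E. It was at 1506, 2187, 1802, 2393 and 2304 CPM in vehicle A to E. AM6545 A, B and C again lay above all vehicle samples and AM6545 E below all of them. The log2 fold change was 0.29 (SE 0.21, 95% interval -0.17 to 0.75, edgeR adjusted p = 0.7099).

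Hsp90aa1 (ENSMUSG00000021270.14), the stress-inducible form, was at 1315, 1615, 1327 and 760 CPM in AM6545 A, B, C and E, and at 917, 1094, 1173, 1346 and 1253 CPM in vehicle A to E. Only AM6545 B was above every vehicle sample, and AM6545 E was below every one. The log2 fold change was 0.12 (SE 0.18, 95% interval -0.27 to 0.51, edgeR adjusted p = 0.863). It turned to -0.03 without AM6545 B and was 0.30 without AM6545 E.

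The J-domain partners overlapped between the groups. Dnajb1 (ENSMUSG00000005483.11), the heat-inducible HSP40, was at 77.3, 69.6, 62.4 and 53.4 CPM in AM6545 A, B, C and E and between 51.8 and 68.8 CPM in vehicle samples. AM6545 A and B lay above the vehicle samples and the other 2 among them, with a log2 fold change of 0.12 (SE 0.12, 95% interval -0.14 to 0.37, edgeR adjusted p = 0.775). It was 0.03 without AM6545 A and 0.21 without AM6545 E. Dnaja1 (ENSMUSG00000028410.14) was at 613, 629, 644 and 444 CPM in AM6545 A, B, C and E and between 474 and 654 CPM in vehicle samples. Its groups overlapped apart from AM6545 E, which was the lowest of the 9, and its log2 fold change was -0.01 (SE 0.13, 95% interval -0.30 to 0.27, edgeR adjusted p = 0.983). Dnaja1 overlaps Smu1 on the other strand, with 1943 to 4436 counts per sample, and the strand setting of the counting is not given in the sources used here.

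Hspb1 (ENSMUSG00000004951.11), the small heat shock protein, had the fewest counts, 36 to 174 per sample. It was at 6.36, 6.44, 2.10 and 2.94 CPM in AM6545 A, B, C and E and at 5.08, 3.37, 1.83, 7.36 and 5.15 CPM in vehicle A to E. The groups covered the same range, and the log2 fold change was -0.04 (SE 0.37, 95% interval -0.83 to 0.75, edgeR adjusted p = 0.980). Its 2 lowest samples, vehicle C and AM6545 C, were also those with the lowest choroid plexus sums, 61.9 and 74.9 CPM, against 339 to 4681 CPM in the other 7 samples. The sum of 10 endothelial markers was lowest in vehicle C too, at 52.4 CPM, against 66.5 to 110.3 CPM in the others. Their part in the Hspb1 values was not tested.

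Hspa5 (ENSMUSG00000026864.14), also called BiP, is the HSP70 of the endoplasmic reticulum. It was at 1015, 796, 864 and 935 CPM in AM6545 A, B, C and E and at 992, 793, 589, 911 and 682 CPM in vehicle A to E. Only AM6545 A was above every vehicle sample, and AM6545 E, low for most other chaperones, was the second of its group here. The log2 fold change was 0.19 (SE 0.15, 95% interval -0.13 to 0.50, edgeR adjusted p = 0.721), with 902 ± 94.1 CPM (SD, n = 4) against 793 ± 164 CPM (SD, n = 5). It was 0.10 without vehicle C and 0.28 without vehicle A.

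**Figure D2:**
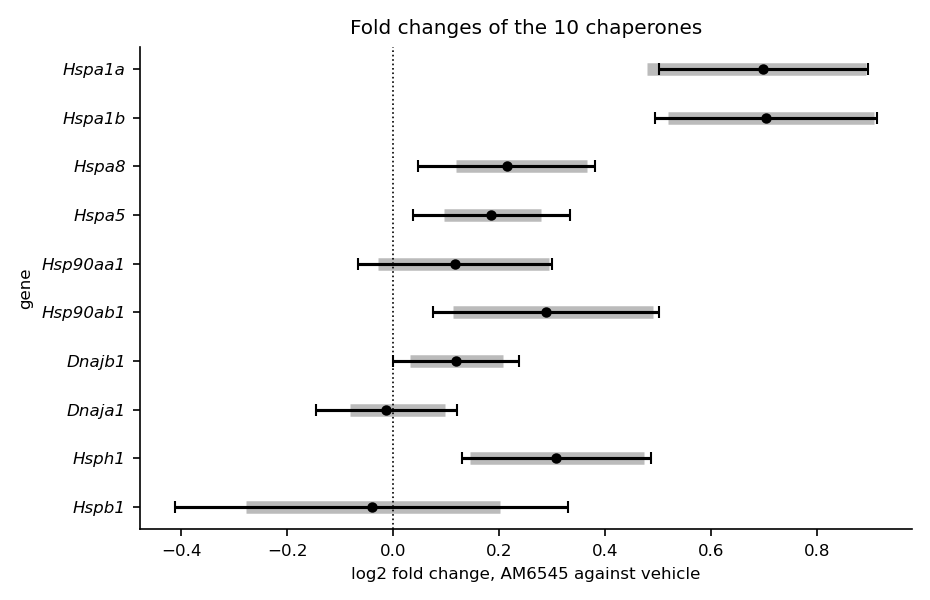
Log2 fold change of AM6545 against vehicle (x axis) for each of the 10 chaperone genes: dots are the fitted values, black bars the standard error and grey bars the range over fits that each leave out 1 sample. Hspa1a and Hspa1b lie at 0.70, and the other 8 between -0.04 and 0.31.

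Leaving out AM6545 E raised the fold changes of Hsph1, Hsp90ab1, Hspa8 and Hsp90aa1, and leaving out AM6545 B lowered them. For Hspa5 it was the other way round, at 0.17 without AM6545 E and 0.24 without AM6545 B. Without AM6545 E the log2 fold change was 0.47 for Hsph1, 0.49 for Hsp90ab1 and 0.37 for Hspa8. Their unadjusted p-values, from edgeR across all genes, were then 0.00543, 0.00926 and 0.0185, and their adjusted p was 0.360 each. With Hsp90aa1 (unadjusted p = 0.0496, edgeR adjusted p = 0.394), 4 of the 8 were then under an unadjusted p of 0.05, where 0 were with all samples. AM6545 E was the lowest AM6545 sample for each of these 4 genes. They also varied together (Pearson r of log2 CPM from 0.91 to 0.99 with group means removed), so they are not 4 separate results. With limma-voom sample weights 2 of the 8 were under an unadjusted p of 0.05, Hspa5 (unadjusted p = 0.0375) and Hsph1 (unadjusted p = 0.0398). Their limma adjusted p was 0.375 and 0.377. Without AM6545 E, 1848 of 14613 genes had an unadjusted p under 0.05 by edgeR, against 1047 of 14512 in the main fit. With limma-voom sample weights 1823 of 14512 genes did. Without AM6545 B the 3 values were 0.15, 0.11 and 0.12. Leaving out either sample therefore moved each of them by more than 1.5 times, and in neither fit did any of the 8 pass the adjusted threshold.

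The cytosolic chaperones varied together from sample to sample, within groups as well as across them. Over the 28 pairs among Hspa1a, Hspa1b, Hspa8, Hsp90aa1, Hsp90ab1, Dnajb1, Dnaja1 and Hsph1, Pearson r of log2 CPM over the 9 samples had a median of 0.85. With group means removed the median was 0.89, from 0.66 to 0.99. The closest pair was Hspa8 with Hsp90ab1 (r = 0.99), followed by Hspa1a with Hsph1 (r = 0.98). These coefficients describe 9 libraries that share scaling and depth for all genes, and no p is given for them. Hspa5 did not follow: its r with those 8 genes ran from -0.52 to -0.11 with group means removed. Hspb1 was in between, at 0.07 to 0.57.

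The same samples stood at the ends of the order for most of these genes. AM6545 B was the highest of the 9 samples for 6 of the 8 cytosolic genes. AM6545 E was among the lowest 2 for 7 of the 8 and vehicle A for 8 of the 8. These 2 low samples belong to different groups. They had the highest sums of oligodendrocyte markers, 19168 CPM in AM6545 E and 22987 CPM in vehicle A, against 11063 to 18361 CPM in the other 7. Mitochondrially encoded transcripts took 6.68% of counts in AM6545 E and 8.05% in vehicle A, against 3.89% to 6.79% in the others. AM6545 B, the highest in chaperones, had the lowest oligodendrocyte sum of its group, 13379 CPM, but vehicle C had a lower one still, 11063 CPM, without high chaperones. The part of these values in the chaperone levels was not tested.

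**Figure D3:**
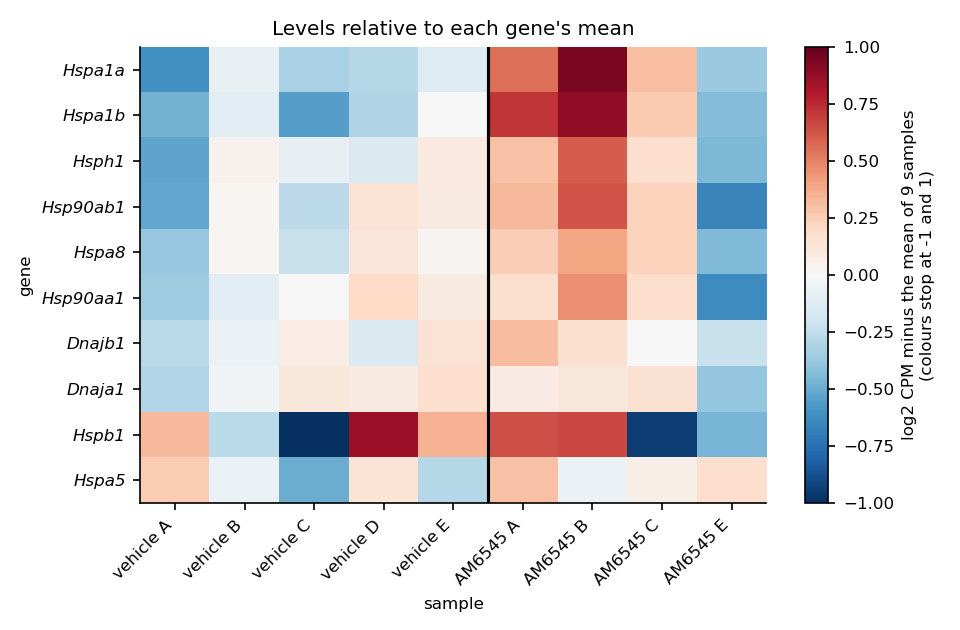
Log2 CPM of each chaperone gene (rows) in each sample (columns) minus the gene's mean over the 9 samples, with the colour scale ending at -1 and 1. AM6545 B is high and AM6545 E and vehicle A are low for the cytosolic chaperones, whereas the rows of Hspa5 and Hspb1 have other patterns.

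Likeness to the inducible pair, as Pearson r over 9 samples with the mean log2 CPM of Hspa1a and Hspa1b, was 0.92 for Hsph1, 0.87 for Hsp90ab1, 0.87 for Hspa8, 0.75 for Dnajb1 and 0.73 for Hsp90aa1. It was lower for Dnaja1 (0.52), Hspb1 (0.34) and Hspa5 (0.13). Without AM6545 A and B, the 2 samples farthest from the median of the pair, it was 0.84 for Hsph1, 0.79 for Hsp90ab1, 0.83 for Hspa8 and 0.53 for Dnajb1. For Hspb1 it turned to -0.23 and for Hspa5 to -0.09.

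The inducible pair stood higher in proportion to Hspa8 as well as in level. Hspa1a and Hspa1b together made up 2.25%, 2.43%, 1.78% and 1.76% of the summed CPM of Hspa1a, Hspa1b and Hspa8 in AM6545 A, B, C and E. In vehicle A to E the share was 1.54%, 1.59%, 1.48%, 1.29% and 1.62%. Unlike the levels of either gene, these shares did not overlap between the groups, at 2.05% ± 0.338 (SD, n = 4) and 1.51% ± 0.131 (SD, n = 5). AM6545 E, with low levels of all 3 genes, lay just above the vehicle range on this measure. The pair was picked for its shift and the ratio was formed from it after its values were seen, so this separation is a description.

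**Figure D4:**
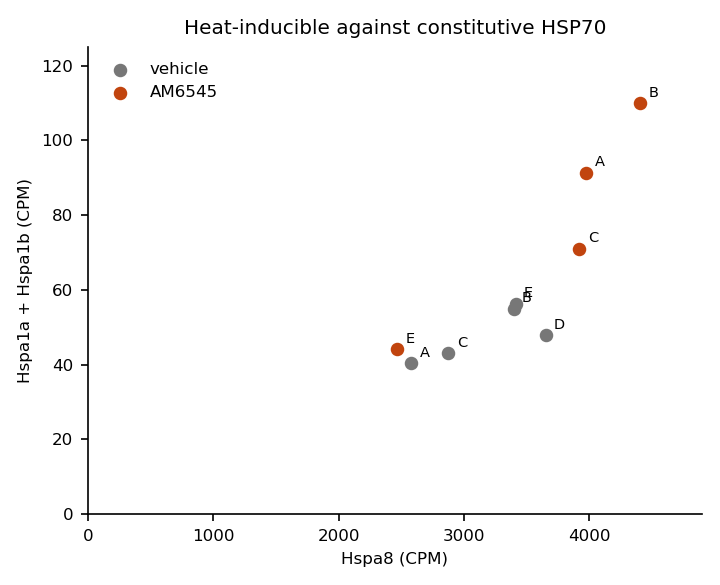
Summed CPM of Hspa1a and Hspa1b (y axis) against CPM of Hspa8 (x axis), 1 lettered point per sample, coloured by group. The 4 AM6545 samples fall in the same order on both axes and the 5 vehicle samples less strictly so, and the AM6545 points lie above vehicle points of like Hspa8 level.

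Other chaperones were read from lists of the pathway, 130 genes in all, of which 126 were tested. By edgeR's quasi-likelihood test 0 of 126 had an adjusted p under 0.05. At an unadjusted p under 0.05, 5 were higher and 8 lower, where 7.21% of all genes had such a p, and the median log2 fold change was 0.02. The other HSP70 and HSP110 genes had 7 of 10 higher, with a median of 0.13 that was 0.06 without vehicle A. Hspa9, the mitochondrial HSP70, was at 392 ± 80.7 CPM after AM6545 (SD, n = 4) and 347 ± 64.4 CPM after vehicle (SD, n = 5), a log2 fold change of 0.18 (edgeR adjusted p = 0.757). Hyou1, an HSP110-like exchange factor of the endoplasmic reticulum, had 0.30 (edgeR adjusted p = 0.653), and Hspa12b, a distant HSP70 relative, -0.59 at under 1 CPM (edgeR adjusted p = 0.681).

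The organelle HSP90 genes had log2 fold changes of 0.06 (Hsp90b1, endoplasmic reticulum) and 0.22 (Trap1, mitochondria). The other J-domain genes were even, 12 higher and 15 lower of 27, with values from -0.21 (Dnajc19) to 0.33 (Dnajc16) and the most abundant, Dnajb6, at -0.09. Small heat shock proteins other than Hspb1 were lower in 4 of the 5 tested (7 listed), with a median of -0.21 that was -0.33 without vehicle C. Among them Cryab, a crystallin of lens and glia, was at 139 ± 8.71 CPM after AM6545 (SD, n = 4) against 155 ± 31.1 CPM (SD, n = 5), and Hspb6 had a log2 fold change of -0.64 (SE 0.25, edgeR adjusted p = 0.653). Hspb3, at under 1 CPM, was at 0.42. Hspb6 was highest in vehicle A, D and E, at 12.5, 9.68 and 7.48 CPM, the samples with the highest choroid plexus sums (4303, 4681 and 2318 CPM). Choroid plexus markers were lower after AM6545 in 12 of 12 (median log2 fold change -1.46) and ependymal markers in 9 of 9 tested (median -0.80), with 0 of either past the adjusted threshold of edgeR. The part of these cell types in the small heat shock protein values was not tested.

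Cochaperones of HSP70 and HSP90 were higher in 16 of 26, with a median of 0.05 that ran from 0.00 without AM6545 B to 0.09 without AM6545 E. Stip1, the adaptor that joins HSP70 to HSP90, was at 0.18 (SE 0.16, edgeR adjusted p = 0.746). Fkbp5, a cochaperone of steroid receptors that glucocorticoids induce, was at 0.27 (SE 0.10, edgeR adjusted p = 0.653), from 32.8 ± 3.84 CPM after vehicle (SD, n = 5) to 39.6 ± 2.90 CPM after AM6545 (SD, n = 4). Cacybp was at -0.18. The list of 10 glucocorticoid response genes, which also holds Fkbp5, had 4 higher and 6 lower and a median of -0.06, with the most abundant, Klf9, at -0.01 and Nfkbia at -0.23.

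The chaperonin list, which holds the mitochondrial chamber, the cytosolic ring that folds actin and tubulin, and its partner prefoldin, had 9 of 16 higher and a median of 0.04. That median was -0.05 without AM6545 B and 0.18 without AM6545 E. All subunits of the cytosolic ring in the list were higher, among them Cct8 at 0.12 and Cct3 at 0.20. All 4 genes of this list with an unadjusted p under 0.05 were lower, each with an edgeR adjusted p of 0.653. They were Hspe1 at -0.37, Pfdn4 at -0.44, Pfdn5 at -0.45 and Vbp1 at -0.29. Hspe1 is the lid of the mitochondrial chamber and the other 3 are subunits of prefoldin. Hspd1, which forms that chamber with Hspe1, was at 0.09. Longer transcripts tended to have higher log2 fold changes over the 14494 genes with a length (Spearman's rho = 0.25, a description across genes that are no replicates). The 4 genes under an unadjusted p of 0.05 have short transcripts, of 774 (Hspe1), 1041 (Pfdn4), 1062 (Pfdn5) and 1595 bases (Vbp1). The median over all genes with a length was 3197.5 bases. In a fit with that trend removed, added after seeing the data, the median of the chaperonin list was 0.06. Single values of the 4 genes in that fit are not given here. There 0 of 126 pathway genes had an edgeR adjusted p under 0.05. Length as a cause of these values was not tested.

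Of the heat shock regulators 4 of 6 were tested, with 1 higher, 3 lower and a median of -0.25, and 0 passed the threshold. That median was -0.14 without AM6545 A and -0.16 as a difference of mean log2(CPM + 1). Hsf1, the main heat shock factor, was at 25.0 ± 2.75 CPM after AM6545 (SD, n = 4) and 23.9 ± 2.53 CPM after vehicle (SD, n = 5), a log2 fold change of 0.06 (edgeR adjusted p = 0.894). Hsbp1, a small protein that binds HSF1, was at -0.27 (SE 0.12, edgeR adjusted p = 0.653). Of 16 heat-inducible genes outside the chaperone classes 7 were higher and 9 lower, with a median of -0.03 that ran from -0.07 without AM6545 B to -0.01 without vehicle E. The most abundant of these, the polyubiquitin gene Ubb, was at 0.04, Ier5l at 0.33 and Rgs2 at -0.33, the last with an edgeR adjusted p of 0.653.

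Endoplasmic reticulum chaperones and genes of the unfolded protein response were higher in 20 of 26, with a median of 0.06 beside -0.01 for all genes. That median was 0.02 without vehicle C and 0.12 without vehicle A. Sel1l, an adaptor for degradation from the endoplasmic reticulum, was at 0.25 (SE 0.10, edgeR adjusted p = 0.653), and Atf4, a transcription factor of the stress response, at -0.24 (SE 0.11, edgeR adjusted p = 0.653). Immediate early genes, which neuronal activity induces, had 10 of 16 higher and a median of 0.02. Of these Jun was at 0.17, Nptx2 at 0.26 and Fosb, at under 1 CPM, at -0.45, with edgeR adjusted p from 0.653 to 0.757.

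**Figure D5:**
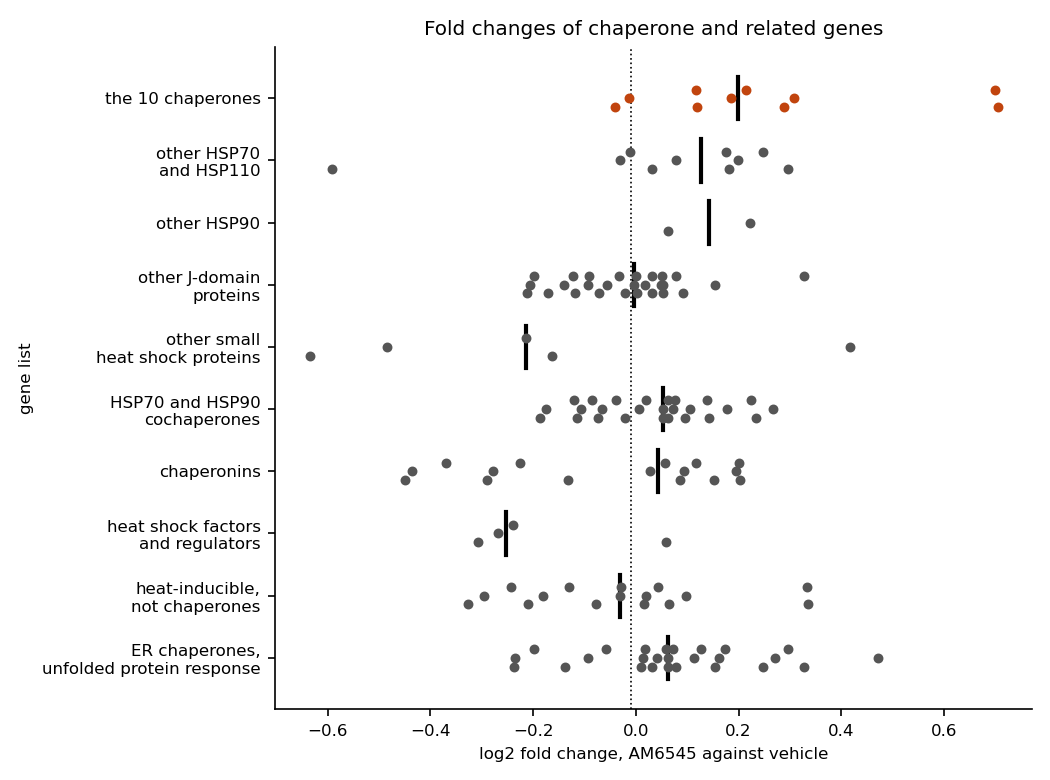
Log2 fold change of AM6545 against vehicle (x axis) for the genes of each chaperone and stress list (rows); dots are genes, black bars list medians and the dotted line the median of all tested genes, -0.01. The median of the 10 chaperones, which include the chosen pair, is 0.20. Medians of the other lists lie between -0.25 and 0.14, and genes of most lists fall on both sides of the line.

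The lists also differed in how closely they followed the inducible pair, again as a description. With group means removed, the median r with the mean of Hspa1a and Hspa1b was 0.82 for the chaperonin list, which includes prefoldin. It was 0.76 for the other HSP70 and HSP110 genes and 0.64 for the cochaperones. It was 0.40 for the heat-inducible genes outside the chaperone classes and 0.40 for the immediate early genes. The organelle HSP90 genes had 0.17, the glucocorticoid response genes 0.06, the heat shock regulators -0.04 and the other small heat shock proteins -0.06. The median r was -0.15 for the other J-domain genes, -0.30 for the endoplasmic reticulum list and -0.07 for all genes. Of all genes outside the 10, Fkbp4, an HSP90 cochaperone, had the highest such r at 0.99, followed by Smg9, Igbp1b, Eif2b5 and Atic at 0.98 to 0.99. Fkbp4 was at 206 ± 52.0 CPM after AM6545 (SD, n = 4) and 176 ± 19.4 CPM after vehicle (SD, n = 5), a log2 fold change of 0.22. Over the 9 samples with the group difference left in, the 5 closest genes were Ift122, Mier2, Tcof1, Tecpr1 and Trim11, with r of 0.98 each.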

How the data were processed

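RNA of 9 hippocampal synaptoneurosome samples was sequenced by the authors after low-input SMARTer library preparation, per the labels' protocols. The authors deposited estimated counts per gene; 56.6% to 69.4% of values in a sample were whole numbers. Salmon 1.3 and DESeq2 1.30 are named, and GRCm39 and mm10 are both listed, per the submitters' processing notes, with no role or order. The strand setting is not given in the sources used here.

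Counts were rounded to whole numbers. Symbols were found for 22155 of 22255 identifiers. Genes were kept with filterByExpr, libraries scaled with TMM and the quasi-likelihood test of edgeR 4.0.16 was run in R 4.3.3, with Benjamini-Hochberg adjustment over 14512 genes and a threshold of 0.05. Standard errors were obtained from the log2 fold change and its F statistic. Correlations used log2 CPM with a prior count of 2. Transcript lengths and overlaps came from GENCODE M21 (GRCm38), taking the longest protein-coding transcript, and promoter sequences from RefSeq (GRCm38.p6).

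The chaperone genes and all lists were chosen with earlier results of these data known. Named besides the 10 were, in each list, the most abundant gene and the gene with the smallest p in each direction. The 5 genes most like the inducible pair by each measure were named too. The other genes of the chaperonin list under an unadjusted p of 0.05 and Hspd1 were named after their values were seen. All 36 pairs of samples differed by more than sampling noise (chi-square divided by its degrees of freedom, 10.03 to 89.98). On simulated data of 14392 genes for this comparison, 49% of 100 genes with a true 1.5-fold change were recovered, as were 83% of 100 with a 2-fold change, beside 6 false calls. Alternatives were other size factors, count filters, DESeq2 1.42.0, limma-voom (limma 3.58.1) with and without sample weights, a block by title letter, leaving out single samples, removal of mitochondrially encoded genes and, added after seeing the data, removal of the trend with transcript length.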

Additional observations from a re-analysis of the deposited data

Results flagged for a closer look

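Dnaja1 in AM6545 E stood apart from the other samples of its group. Its level was 443.58 CPM, against 613.0 to 644.06 CPM in AM6545 A, B and C, and the gap to the nearest sample was 0.8675 of the group's range, above Dixon's critical value for 4 samples. It was 1 of 20 groups of values examined, and chance alone gives about 1 in 20. Vehicle A, at 473.57 CPM, was the lowest vehicle sample for this gene.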

How the results depend on the processing

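The number of chaperones past the adjusted threshold, other than the inducible pair, was 0 of 8 under all 21 alternatives, and so was that of the pathway genes. Over all genes the count was 0 except without AM6545 A, where it was 1 (range 0 to 1 on leaving out each sample). The count at an unadjusted p under 0.05 ran from 496 without vehicle A to 1848 without AM6545 E. The number of the 8 that were higher ran from 5 without AM6545 B to 8. Hspa1a, Hspa1b, Hspa8, Hspa5, Hsp90ab1, Dnajb1 and Hsph1 kept their direction throughout, and Hsp90aa1 turned to -0.0284 without AM6545 B (range to 0.2952). Dnaja1 turned to 0.0126 with limma-voom sample weights and 0.0019 with the replicate block, and ran from -0.0812 to 0.0978 on leaving out 1 sample (0.0978, 0.0122, 0.0051 and 0.0281 without AM6545 E, vehicle C, vehicle D and vehicle E). Hspb1 turned to 0.1705 with the replicate block and 0.1228 with the length trend removed, and ran from -0.2773 to 0.2018 (0.1949, 0.1173, 0.2018 and 0.0082 without AM6545 C, AM6545 E, vehicle D and vehicle E). The causes were not tested. Of the 4 pairs of samples with the same letter only the C pair deviated together (r of -0.02, 0.04, 0.34 and -0.02 for A, B, C and E), so the letters were not taken to pair samples; the replicate block changed no call. Hspb1 had the fewest counts of the 10, 36 to 174 per sample.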
